A study of Mus musculus with 9 samples.

Results

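The 9 genes described here are regulators and markers by which macrophages are commonly defined, and they were chosen by name from the 54532 genes of the expression table. They are Csf1r, the receptor for colony-stimulating factor 1, the transcription factors Spi1 (PU.1), Cebpa and Cebpb, the surface proteins Adgre1 (F4/80), Itgam (CD11b) and Itgax (CD11c), the lysosomal protein Cd68 and the secreted enzyme Lyz2 (lysozyme M). RNA was sequenced from RAW264.7 cells, a virus-transformed mouse macrophage line that the labels list as WT and derived from ascites. The 3 groups held 3 libraries each, namely untreated controls, a group exposed for 6 h to 1 μg/ml LPS, and a group exposed for 6 h to 1 μg/ml LPS in the presence of 400 μg/ml G-CDs. LPS is a bacterial cell wall component that activates macrophages, and G-CDs are carbon dots made from licorice. The treatment label of the last group gives LPS alone, and G-CDs appear in its sample titles. Levels are in FPKM, which relates the fragments counted on a gene to its length and to the size of the library, so that genes of different length can be compared. Genes were tested where 3 or more of the 9 libraries reached 1 FPKM, which held for 11585 genes in all and for 8 of the 9 described here, all but Itgax. Changes are log2 fold changes on the log2(FPKM + 1) scale, which understates changes of low genes. They were tested with limma, two-sided, at a Benjamini-Hochberg adjusted p of 0.05 over the 11585 genes.

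PU.1 is the factor that commits blood progenitors to the myeloid fate, and together with C/EBP factors it binds the regulatory regions of many macrophage genes, among them the gene of the CSF1 receptor. Signals from this receptor keep macrophages alive and growing. Activated macrophages are known to alter both their growth factor receptors and their C/EBP factors, while F4/80, CD11b, CD68 and lysozyme are used in the laboratory to recognize the cells.

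The libraries held 14752400 to 17312255 reads on genes. Replicates of the LPS group were closest to each other, with Pearson's r across genes of 0.987 to 0.988, against 0.94 to 0.969 in the control group and 0.935 to 0.975 in the LPS + G-CDs group. Nothing in the labels says that replicates were separate cultures, so p-values measure the spread between these libraries, which may be technical. The lineage label was checked with 28 markers of T cells, B cells, neutrophils, dendritic cells, osteoclasts, fibroblasts and epithelium. None of the 28 reached the level needed for testing (0 genes), 11 were at 0 in every library, and the highest value was 1.12 FPKM for Acp5, an osteoclast enzyme. By contrast Lyz2, Csf1r, Cd68 and Spi1 were above 80 FPKM in every library. Cebpa, Cebpb, Adgre1 and Itgam were lower in places, at 3.79 to 200 FPKM, and Itgax was below 1 FPKM in every library. Of other genes used for macrophages, Mertk and Maf were at 0 in every library. Mrc1 and Cd163 had at most 0.205 and 0.0391 FPKM.

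In control cells the order of mean levels was Lyz2, Csf1r, Cd68, Spi1, Cebpb, Cebpa, Adgre1, Itgam and Itgax. The replicates of Cd68 and Spi1 overlapped, and so did those of Cebpa and Adgre1 and those of Adgre1 and Itgam, so these neighbors did not differ beyond their spread. Only 6 genes of the whole table had a higher mean than Lyz2 in control cells, against 32 with LPS and 54 with LPS + G-CDs. With LPS, Cd68 stood above Csf1r, Adgre1 and Itgam stood above Cebpa, and no neighbors in the order overlapped. With LPS + G-CDs the order was that of the LPS group, with overlap between Csf1r and Spi1 and between Spi1 and Cebpb.

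LPS changed 5 of the 8 tested genes. Csf1r, Cebpa and Lyz2 fell, Adgre1 and Itgam rose, and Spi1, Cebpb and Cd68 did not pass the test. Over all 11585 genes, 31.3% were called in this comparison, 15.8% higher and 15.6% lower. The control and LPS libraries did not overlap for 6 of the 8 genes, as for 52.5% of all genes tested. The median change of the 8 genes was 0.34, beside 0.02 over all genes.

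With LPS + G-CDs against control, 5 of the 8 genes were called, with Cebpb and Adgre1 higher and Csf1r, Cebpa and Lyz2 lower. In that comparison 25.3% of all genes were called, 12.8% higher and 12.4% lower. The groups did not overlap for 5 of the 8, beside 34.3% of all genes. The median of the 8 was 0.24, beside 0.02 over all genes. The 3 comparisons share libraries and are not independent of each other.

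Between LPS + G-CDs and LPS, 0 of the 8 genes were called by limma, where 0.492% of all genes were. At an unadjusted p under 0.05 there were 3 of the 8, Cebpa, Adgre1 and Itgam, where 15.2% of all genes had such a p, and limma's voom on the reads called 0. These 3 were also the genes whose libraries did not overlap, a state shared by 27.9% of all genes. The median of the 8 was 0.09, beside 0.02 over all genes.

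**Figure D1:**
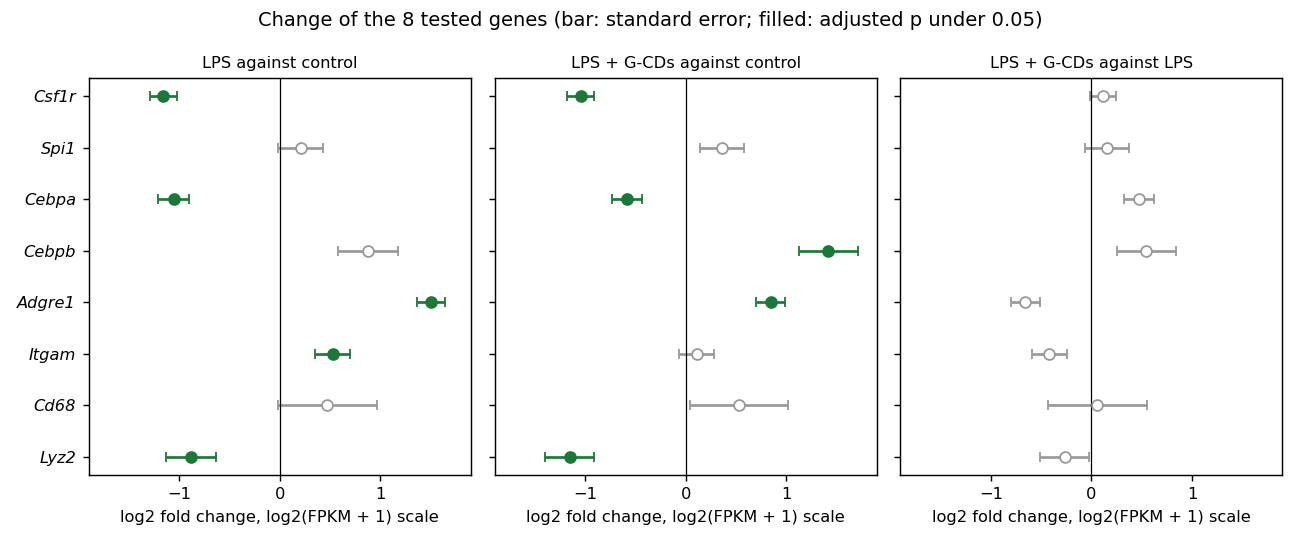
Log2 fold change on the log2(FPKM + 1) scale (x axis) of the 8 tested genes (y axis) in each comparison, with standard errors as bars and filled points for an adjusted p under 0.05. Csf1r, Cebpa and Lyz2 lie below 0 and Adgre1 above 0 in both comparisons with control, and no point is filled for LPS + G-CDs against LPS.

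Csf1r encodes the tyrosine kinase that binds CSF1 and IL-34, and it lies on the plus strand of GRCm38 at chr18:61105572-61132149. Its level was 454, 469 and 431 FPKM in control replicates 1, 2 and 3, then 212, 194 and 199 FPKM with LPS, and 236, 218 and 201 FPKM with LPS + G-CDs. Every treated library lay below every control library, and the treated groups overlapped each other. Csf1r fell by 1.16 with LPS (standard error 0.13, limma adjusted p = 0.00021), from 451 ± 19.5 to 202 ± 9.63 FPKM (SD, n = 3). In a bulk sample, less RNA per cell and fewer cells with the RNA cannot be told apart. With LPS + G-CDs it fell by 1.04 against control (standard error 0.13, limma adjusted p = 0.00047). Against LPS the difference was 0.11 (95% interval -0.19 to 0.41, limma adjusted p = 0.61), and its sign turned with scaling, to -0.055 as TPM. Csf1r kept its call against control in all 19 alternative analyses of both comparisons, with -1.64 for LPS + G-CDs under quantile normalization. Hmgxb3 overlaps it on the other strand, shares 17.7% of its 50-base words and was at 6.46 to 22.1 FPKM. The strand setting of the counting is not given in the sources used here, so the assignment of reads in the overlap is uncertain.

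The rest of the pathway from a list of 14 genes around the CSF receptors moved in both directions with LPS. Of its 12 tested genes, 4 rose, 1 fell and 7 did not pass the test, with a median of 0.22, beside 31.3% of all genes called, and as TPM 4 rose and 3 fell. Of the 41 tested genes in this list and 2 further lists, 7 had a mean under 1 FPKM in at least 1 group, so their presence among the tested genes can depend on the groups where they were higher. Csf1, the ligand made by many cells, had 2, 7 and 1 reads in the control libraries, 154, 116 and 160 with LPS, and 147, 159 and 79 with LPS + G-CDs. No control library reached the treated ones, at 1.93 ± 0.292 and 1.60 ± 0.468 FPKM in the treated groups (SD, n = 3). Csf1 counts among the genes that rose in both comparisons with control, but it was tested only because the treated libraries reached 1 FPKM, so its call is a description. Il34, the other ligand, had at most 0.06 FPKM in any library.

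Gab2, a docking protein that acts below cytokine receptors, rose by 1.85 with LPS (limma adjusted p = 0.00028), from 1.96 ± 0.307 to 9.62 ± 0.208 FPKM (SD, n = 3). Csf2rb, the common beta chain of the GM-CSF, IL-3 and IL-5 receptors, fell by 0.45 (limma adjusted p = 0.028), a call lost in 6 of 18 alternative analyses. In the LPS + G-CDs group 4 of the 12 rose against control and 2 fell, with a median of 0.09, beside 25.3% of all genes called, and as TPM 3 rose and 3 fell. Csf1 was among the genes that rose, while Csf2rb fell by 0.70 and Inpp5d, a phosphatase that restrains phosphoinositide signaling, fell by 0.61. The call of Inpp5d was lost in 6 of 19 alternative analyses (limma adjusted p = 0.036, up to 0.11). Between LPS + G-CDs and LPS, 0 of the 12 were called by limma, with 2 at an unadjusted p under 0.05, near the 15.2% of all genes, and a median of -0.15. With the gene-length trend removed, alone, with the replicate block or with the GC trend, 1 of the 12 was called lower in each fit. The count was also 1 without LPS + G-CDs replicate 1, and the gene need not be the same in each.

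Spi1, whose product PU.1 drives Csf1r, Itgam and many other myeloid genes, lies at chr2:91082390-91115756 on the plus strand and has 5 exons. It was at 105, 108 and 157 FPKM in control cells, 143, 132 and 146 FPKM with LPS, and 122, 153 and 204 FPKM with LPS + G-CDs. All 3 groups overlapped, and replicate 3 was the highest of its group in each. The change was 0.21 with LPS (95% interval -0.29 to 0.71, limma adjusted p = 0.52). It was 0.16 for LPS + G-CDs against LPS (-0.34 to 0.66, adjusted p = 0.67), and 0.36 against control (-0.14 to 0.86, adjusted p = 0.27). These intervals leave room for changes in either direction, and rescaling to TPM turned all 3 values negative. With gene-length and GC trends removed, Spi1 passed the test against control with LPS and with LPS + G-CDs (0.51 and 0.48, adjusted p = 0.017 and 0.025).

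Cebpa encodes C/EBPα, a factor of myeloid differentiation that restrains cell division, and Cebpb encodes C/EBPβ, a factor of inflammatory gene expression. Both are genes of 1 exon, at chr7:35119293-35121928 and chr2:167688915-167690418, on the plus strand. Cebpa was at 10.8, 8.38 and 8.46 FPKM in control cells, 3.87, 3.79 and 3.99 FPKM with LPS, and 4.67, 5.85 and 7.05 FPKM with LPS + G-CDs. The 3 groups did not overlap, with LPS lowest and LPS + G-CDs in between. Cebpa fell by 1.06 with LPS (standard error 0.15, limma adjusted p = 0.00084), a call kept in all 19 alternative analyses, though the value was -0.64 with gene-length and GC trends removed. It also fell by 0.58 with LPS + G-CDs against control (standard error 0.15, limma adjusted p = 0.022). This call was lost without control replicate 1 and without LPS + G-CDs replicate 2 (adjusted p = 0.064 and 0.071), and kept in 16 of 19 alternative analyses, with values of -0.97 as TPM and -0.36 with gene-length and GC trends removed. Against LPS, the LPS + G-CDs libraries differed by 0.47 (95% interval 0.13 to 0.82, unadjusted p = 0.013, limma adjusted p = 0.27), which did not pass the test and did so in none of the 19 alternative analyses.

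Cebpb was at 55.8, 37.4 and 54.1 FPKM in control cells, 97.7, 75.8 and 97.0 FPKM with LPS, and 85.1, 132 and 200 FPKM with LPS + G-CDs. Every treated library lay above every control library, and the treated groups overlapped. The difference with LPS was 0.88 (standard error 0.30), just short of the threshold with a limma adjusted p = 0.052. With the replicate number as a block the limma adjusted p was 0.037, and Cebpb passed in 10 of 19 alternative analyses in all. The difference was 1.03 with the gene-length trend removed (limma adjusted p = 0.0027) and 1.41 with gene-length and GC trends removed (4.5e-05). With any 1 control or LPS library left out, Cebpb did not pass (limma adjusted p = 0.071 to 0.15). With LPS + G-CDs against control it rose by 1.42 (standard error 0.30, limma adjusted p = 0.0076), kept in all 19. Against LPS the difference was 0.54 (95% interval -0.13 to 1.22, adjusted p = 0.35). Tmem189, on the other strand, shares 18.1% of the 50-base words of Cebpb and was at 13.6 to 23.3 FPKM, so reads in the overlap are uncertain.

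The level of Cebpb over that of Cebpa is free of differences in scaling between libraries, though not of those that go with gene length. This ratio was 5.15, 4.47 and 6.40 in control cells, 25.2, 20.0 and 24.3 with LPS, and 18.2, 22.6 and 28.3 with LPS + G-CDs. The treated libraries lay above all control libraries and overlapped each other. On the log2 scale the ratio was higher by 2.13 with LPS and by 2.10 with LPS + G-CDs than in control cells, each with p = 0.1 in a two-sided exact permutation test, the smallest that 3 libraries against 3 allow. LPS + G-CDs differed from LPS by -0.02 (exact permutation p = 1.0).

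**Figure D2:**
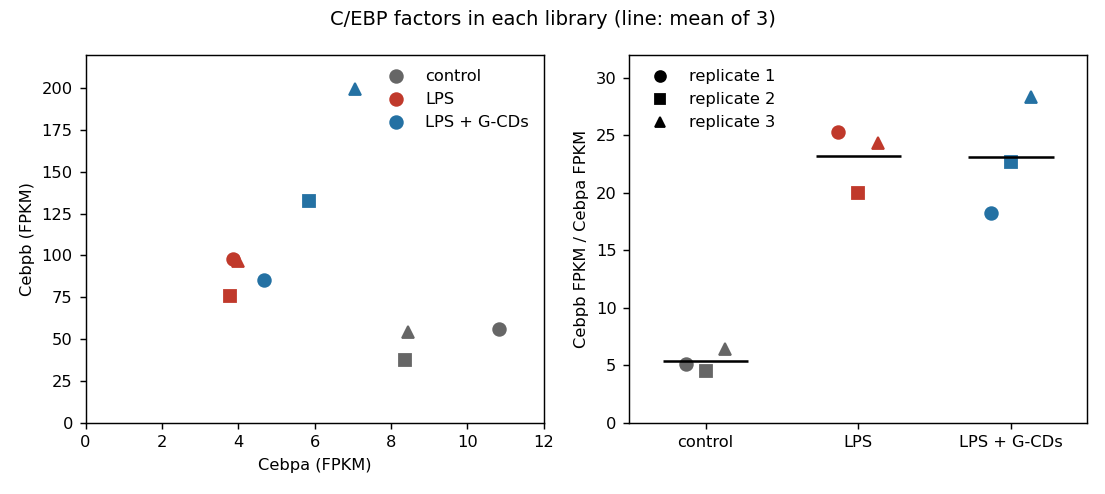
Left, Cebpb (y axis, FPKM) against Cebpa (x axis, FPKM) in each of the 9 libraries, colored by group. Right, the ratio of both levels by group, with points for libraries and lines for the means, which were 5.34 in control cells, 23.2 with LPS and 23.1 with LPS + G-CDs.

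A list of 18 other myeloid transcription factors held 14 tested genes, of which 5 rose with LPS, 3 fell and 6 did not pass, with a median of 0.11, beside 31.3% of all genes called. Cebpd, another C/EBP gene, known as an acute-phase factor, rose by 2.74 (limma adjusted p = 2.3e-05), from 5.05 ± 0.575 to 39.6 ± 5.42 FPKM (SD, n = 3). Irf8, a partner of PU.1, rose by 2.0 (limma adjusted p = 2.4e-06), from 13.5 ± 0.758 to 56.9 ± 2.66 FPKM (SD, n = 3). Klf4, a zinc-finger factor of monocytes, was at 3.12 ± 0.611 FPKM in control cells, 0.744 ± 0.118 with LPS and 0.985 ± 0.105 with LPS + G-CDs (SD, n = 3). It counts among the genes that fell in both comparisons with control, but it was tested only because the control libraries reached 1 FPKM, so its calls are descriptions. Cebpg, which pairs with other C/EBP proteins, stayed between 7.23 and 8.65 FPKM in the 9 libraries, with a change of -0.06 (adjusted p = 0.71).

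In LPS + G-CDs cells against control, 3 of the 14 rose and 3 fell, with a median of 0.33, beside 25.3% of all genes called. Cebpd rose by 2.44 and Irf8 by 1.56. Between LPS + G-CDs and LPS, 0 of the 14 were called by limma, with 5 at an unadjusted p under 0.05, beside 15.2% of all genes, and a median of -0.01.

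Adgre1 encodes F4/80, an adhesion G protein-coupled receptor, and lies at chr17:57358691-57483527 on the plus strand with 22 exons. It was at 8.5, 10.3 and 8.26 FPKM in control cells, 27.1, 27.4 and 27.3 FPKM with LPS, and 19.5, 17.9 and 13.9 FPKM with LPS + G-CDs. The 3 groups did not overlap, with control lowest and LPS highest. Adgre1 rose by 1.5 with LPS (standard error 0.14, limma adjusted p = 7.2e-05), 3.03-fold by the group means, and kept this call in all 19 alternative analyses. With LPS + G-CDs against control it rose by 0.85 (standard error 0.14, limma adjusted p = 0.0025), a call lost after rescaling to TPM (0.44, adjusted p = 0.16). LPS + G-CDs differed from LPS by -0.66 (95% interval -0.98 to -0.33, unadjusted p = 0.0014, limma adjusted p = 0.13), which did not pass the test. Without LPS + G-CDs replicate 1 it passed, with an adjusted p of 0.048. None of its 50-base words (0.0%) occur in another gene.

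Among its relatives, Adgre5 (CD97) was near the lower limit for testing, at 1.05 FPKM in each control library. It was at 0.52, 0.443 and 0.714 FPKM with LPS, and at 0.258, 0.256 and 0.152 FPKM with LPS + G-CDs. Adgre5 counts among the genes that fell in both comparisons with control in the list of surface and granule genes below. It was tested only because the control libraries reached 1 FPKM, so its calls are descriptions. Adgre4 had at most 0.0408 FPKM.

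Itgam and Itgax encode the alpha chains of complement receptors 3 and 4 and are neighbors on chromosome 7, at chr7:128062640-128118491 and chr7:128129547-128150657, both on the plus strand and with 30 exons each. Itgam was at 6.41, 8.03 and 11.3 FPKM in control cells, 11.6, 12.7 and 13.3 FPKM with LPS, and 8.67, 9.68 and 9.04 FPKM with LPS + G-CDs. The LPS libraries lay above all others, with control replicate 3 close to LPS replicate 1. Itgam rose by 0.53 with LPS (standard error 0.18, limma adjusted p = 0.048), 1.46-fold by the group means. The call was kept in 9 of 19 alternative analyses, with adjusted p up to 0.26. It was lost without control replicate 1 (0.36, adjusted p = 0.11), without control replicate 2 and without any 1 of the LPS libraries. LPS + G-CDs differed from LPS by -0.42 (95% interval -0.82 to -0.02, unadjusted p = 0.041, limma adjusted p = 0.32) and from control by 0.11 (-0.29 to 0.51, adjusted p = 0.69), neither past the test. Gm49368, an overlapping gene on the same strand, holds 72.4% of the 50-base words of Itgam, so the assignment of its reads is uncertain. Gm49368 itself was at 0.151 FPKM or less.

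Itgax was below 1 FPKM in every library, at 0.377, 0.514 and 0.351 in control cells, 0.859, 0.799 and 0.530 with LPS, and 0.677, 0.489 and 0.608 with LPS + G-CDs. These values rest on 30 to 57 reads a library. The control and LPS libraries did not overlap, and LPS + G-CDs overlapped both. In exact permutation tests on log2(FPKM + 1), two-sided, the differences were 0.29 with LPS (p = 0.1, the smallest possible), -0.12 for LPS + G-CDs against LPS (p = 0.3) and 0.17 against control (p = 0.2). The level of Itgam was 15.6 to 32.3 times that of Itgax in control cells, 13.5 to 25.1 times with LPS and 12.8 to 19.8 times with LPS + G-CDs, so the ranges overlapped. Itgad, a further alpha chain that shares 9.6% of the 50-base words of Itgax, had at most 0.0789 FPKM.

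The 250 bases before the RefSeq start of each of these neighboring genes (GRCm38.p6, plus strand) are printed to show where the searched words occur. Matches are in capitals. They span chr7:128062390-128062639 for Itgam and chr7:128129300-128129549 for Itgax, 3 bases of which lie inside the gene of the expression table. Both strands were searched for the PU.1 core GAGGAA, the C/EBP word TTGCNNAA, the AP-1 word TGANTCA and the TATA box TATAAA. Other forms of these sites were not searched, so the lack of a match does not show the lack of a site.
Itgam: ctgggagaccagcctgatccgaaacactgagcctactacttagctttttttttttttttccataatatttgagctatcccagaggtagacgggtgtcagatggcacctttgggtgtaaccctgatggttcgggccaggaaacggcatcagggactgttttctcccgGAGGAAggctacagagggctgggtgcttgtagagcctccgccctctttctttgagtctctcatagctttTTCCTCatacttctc
Itgax: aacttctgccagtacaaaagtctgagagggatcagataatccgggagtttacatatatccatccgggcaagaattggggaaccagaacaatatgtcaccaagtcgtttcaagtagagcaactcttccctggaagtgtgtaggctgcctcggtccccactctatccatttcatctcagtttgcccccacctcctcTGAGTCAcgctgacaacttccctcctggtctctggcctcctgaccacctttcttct
In the 300 bases from 250 before to 50 after the start, Itgam held 3 matches to the PU.1 core, at -84, -15 and 33 from the start, of which the last is not printed. Itgax held none of these, and 1 match to AP-1, at -56. Of 32851 mouse promoters of the same length, 28.3% held the PU.1 core, 10.8% the C/EBP word, 7.81% the AP-1 word and 13.6% the TATA box. No measurement of factor binding bears on these matches.

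Itgb2, the beta chain that pairs with both, rose from 60.6 ± 3.42 to 81.3 ± 3.10 FPKM with LPS (SD, n = 3), a change of 0.42 (limma adjusted p = 0.021), a call lost as TPM (0.15, adjusted p = 0.55), with quantile normalization (0.29, adjusted p = 0.23), without control replicate 3 (adjusted p = 0.063) and without any 1 LPS library (0.057 to 0.087). Itgal (CD11a), the alpha chain of LFA-1, rose by 2.46 (limma adjusted p = 2.8e-05), from 2.72 ± 0.412 to 19.3 ± 0.565 FPKM (SD, n = 3). Between LPS + G-CDs and LPS it fell by 1.22 (limma adjusted p = 0.047), to 10.8, 7.74 and 5.43 FPKM. This call was lost in 9 of 19 alternative analyses, with adjusted p up to 0.25, among them those without any 1 LPS library and without LPS + G-CDs replicate 2 or 3.

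Cd68 encodes macrosialin, a glycoprotein of late endosomes and lysosomes, and has 6 exons on the minus strand at chr11:69664213-69666153. It was at 86.8, 324 and 418 FPKM in control cells, 323, 316 and 310 FPKM with LPS, and 286, 332 and 377 FPKM with LPS + G-CDs. Control replicate 1 lay far below all other libraries, and the other control libraries overlapped the treated ones. The change was 0.47 with LPS (95% interval -0.64 to 1.58, limma adjusted p = 0.51). For LPS + G-CDs it was 0.53 against control (-0.58 to 1.64, adjusted p = 0.48) and 0.06 against LPS (-1.05 to 1.17, adjusted p = 0.95). Without control replicate 1 the first values became -0.22 and -0.16 (adjusted p = 0.38 and 0.57). In that library Cd68 stood at -2.07 on the log2 scale relative to the mean of the other control libraries, and 60 of the 11585 genes (0.518%), Cd68 included, were at least that low. The library was the lowest of its group for 4 of the 8 tested genes. It was also the lowest for Lamp1, a lysosomal membrane protein at 137 FPKM there and 236 and 239 FPKM in the other controls. For Id2, a transcription factor, it was the lowest as well, at 2.43 beside 7.20 and 7.49 FPKM. For Ctss, a lysosomal protease, it was not, at 147 beside 135 and 171 FPKM.

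The promoter of Cd68 is printed because it was the only one of the 6 analyzed that matched the PU.1, C/EBP and AP-1 words. It spans chr11:69666171-69666420 (GRCm38.p6, minus strand), with matches in capitals.
Cd68: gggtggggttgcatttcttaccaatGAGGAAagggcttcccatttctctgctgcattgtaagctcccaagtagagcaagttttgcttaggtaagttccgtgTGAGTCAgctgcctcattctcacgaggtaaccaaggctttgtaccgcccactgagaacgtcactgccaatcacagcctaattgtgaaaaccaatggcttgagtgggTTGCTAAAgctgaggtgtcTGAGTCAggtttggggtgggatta
The PU.1 core stood at -225 and, outside the printed part, at 30, the C/EBP word at -43, and the AP-1 word at -149 and -24. The promoters of Cebpa and Cebpb held only the TATA box, at -30 and 22. The promoters of Csf1r, Spi1 and Adgre1 were not analyzed here.

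Lyz2 encodes the lysozyme of macrophages, which cuts bacterial cell walls, and has 4 exons on the minus strand at chr10:117277331-117282321. It was at 1539, 1665 and 2083 FPKM in control cells, 952, 914 and 977 FPKM with LPS, and 579, 786 and 1067 FPKM with LPS + G-CDs. Every treated library lay below every control library, and the LPS + G-CDs libraries spread to both sides of the LPS libraries. Lyz2 fell by 0.88 with LPS (standard error 0.24, limma adjusted p = 0.024), from 1762 ± 285 to 947 ± 31.9 FPKM (SD, n = 3). This call was kept in 15 of 20 alternative analyses. It was lost without control replicate 3, without any 1 LPS library (adjusted p = 0.072 to 0.085) and with no filter on low values (0.16). With LPS + G-CDs against control it fell by 1.15 (standard error 0.24, limma adjusted p = 0.0084), kept in 18 of 20. Under quantile normalization the Lyz2 values against control were -1.40 with LPS and -1.89 with LPS + G-CDs. Against LPS the difference was -0.27 (95% interval -0.82 to 0.29, adjusted p = 0.52). It was -0.049 without LPS + G-CDs replicate 1, -0.49 without LPS + G-CDs replicate 3 and -0.55 with the gene-length trend removed. It passed in none of the 20 alternative analyses. The ratio of Lyz2 to Csf1r was 3.39 to 4.84 in control cells, 4.48 to 4.92 with LPS and 2.45 to 5.31 with LPS + G-CDs, and all 3 ranges overlapped.

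Lyz1, the lysozyme gene of intestinal Paneth cells, lies next to Lyz2 on chromosome 10 and shares 15.4% of the 50-base words of Lyz2. It was at 0.401 to 1.29 FPKM, on 7 to 29 reads a library. Summing both genes left the LPS change of Lyz2 at -0.88 (adjusted p = 0.024). Their promoters are printed because these neighbors share much of their upstream sequence and differed widely in level. The lines give bases 150 to 51 before the RefSeq start (GRCm38.p6, minus strand), at chr10:117282323-117282422 for Lyz2 and chr10:117292919-117293018 for Lyz1, with the 21 bases that differ in capitals.
Lyz2: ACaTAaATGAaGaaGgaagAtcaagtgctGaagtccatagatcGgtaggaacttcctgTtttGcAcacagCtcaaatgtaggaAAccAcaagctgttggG
Lyz1: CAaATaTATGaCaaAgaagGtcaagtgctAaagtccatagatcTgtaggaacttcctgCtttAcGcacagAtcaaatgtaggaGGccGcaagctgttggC
The 50 bases that follow, up to the start, were identical, and over the 300 bases from 250 before to 50 after the start 249 (83.0%) were identical in a global alignment. The RefSeq start of Lyz2 lies 49 bases inside the gene of the expression table. None of the searched words matched the promoter of Lyz2, and that of Lyz1 held 1 C/EBP match, at -209.

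**Figure D3:**
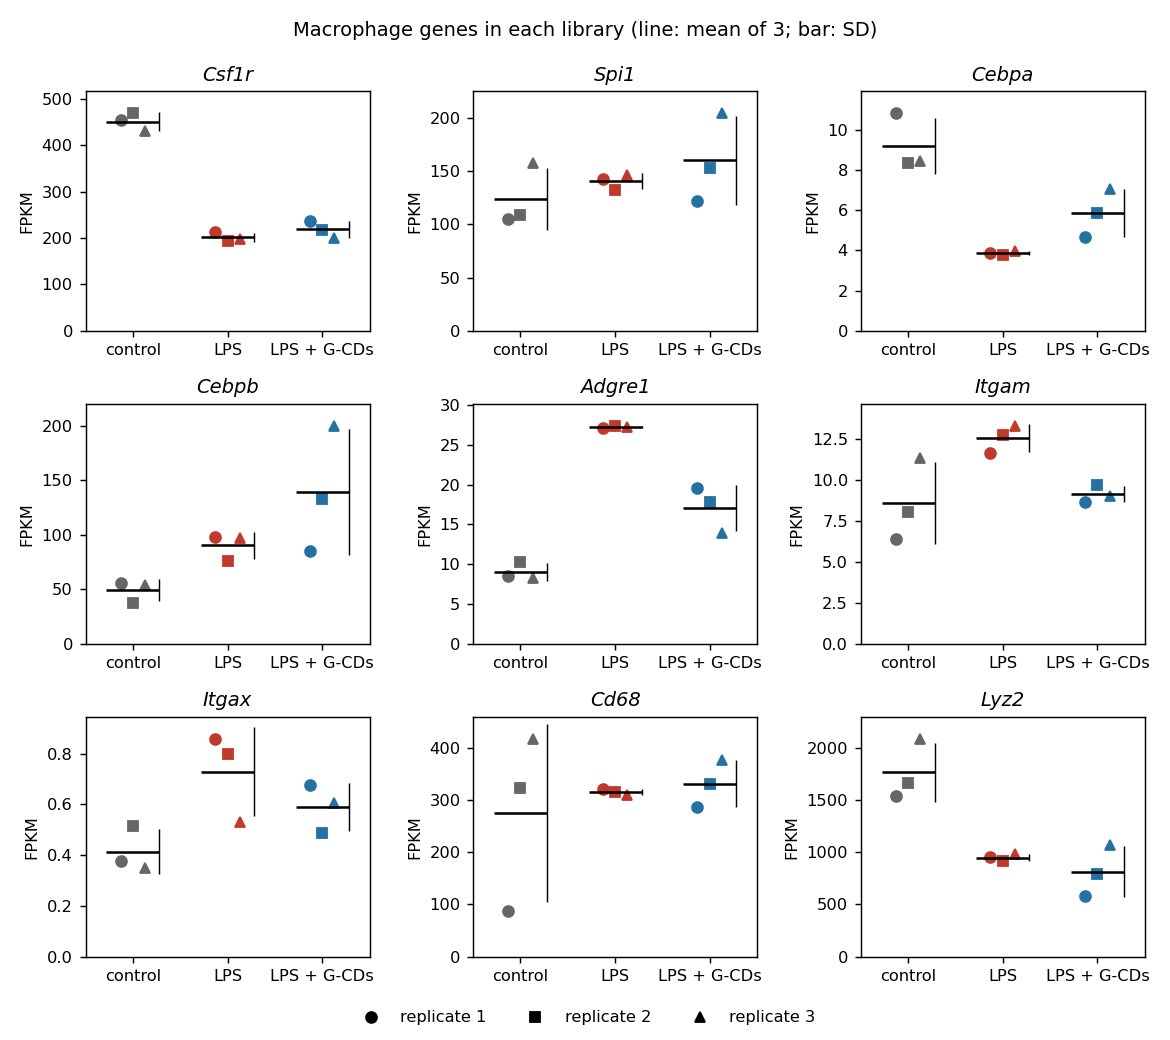
FPKM (y axes, from 0) of the 9 genes in each library by group, with a symbol for each replicate number, lines for the mean of 3 and bars for the SD. Csf1r, Cebpa and Lyz2 are lower and Cebpb and Adgre1 higher in every treated library than in every control library, and control replicate 1 of Cd68 lies at 86.8 FPKM.

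A list of 23 other surface and granule genes of macrophages held 15 tested genes. With LPS 6 rose, 4 fell and 5 did not pass, with a median of -0.13, beside 31.3% of all genes called. This split turned with scaling, to 2 higher and 5 lower as TPM, 5 and 5 with quantile normalization and 6 and 2 with median-of-ratios scaling. Cd14, the LPS co-receptor, rose by 2.40 (limma adjusted p = 8.3e-05), from 436 ± 53.5 to 2292 ± 69.5 FPKM (SD, n = 3). Sirpa, which receives the inhibitory signal of CD47, fell by 1.56 (limma adjusted p = 1.5e-05), from 34.2 ± 1.73 to 11.0 ± 1.33 FPKM (SD, n = 3). Cx3cr1, the fractalkine receptor, fell by 0.92 (limma adjusted p = 0.014), a call lost without LPS replicate 3 (-0.89, adjusted p = 0.05 when rounded). Of the lysosomal membrane proteins, Lamp2 rose by 0.66 (limma adjusted p = 0.014), a call lost as TPM (0.40, adjusted p = 0.22) and without LPS replicate 2 (adjusted p = 0.06), and Lamp1 had a change of -0.14 (adjusted p = 0.65).

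Against control, LPS + G-CDs cells had 2 of the 15 genes higher and 3 lower, with a median of 0.02, beside 25.3% of all genes called, and 2 higher and 5 lower as TPM. Cd14 rose by 2.55 and Itgal by 1.24, while Cx3cr1 fell by 1.68 and Sirpa by 1.60. Between LPS + G-CDs and LPS, 1 of the 15 was called, which was Itgal, beside 0.492% of all genes, and the number called was 0 to 2 in the alternative analyses, with 2 without LPS + G-CDs replicate 1. At an unadjusted p under 0.05 there were 5, beside 15.2% of all genes, and the median was -0.04.

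**Figure D4:**
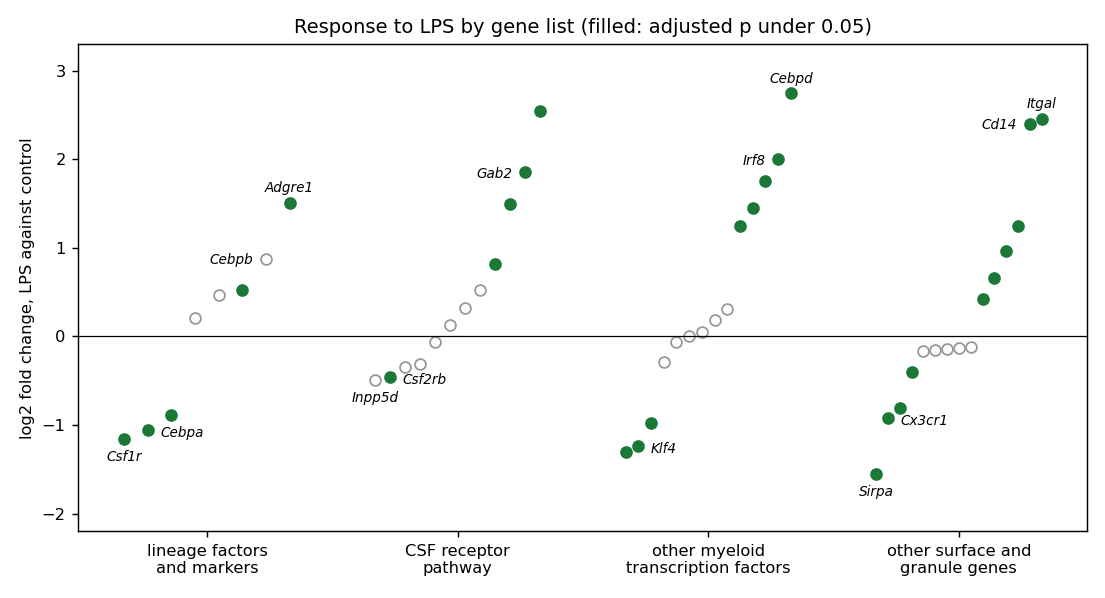
Log2 fold change with LPS against control (y axis, log2(FPKM + 1) scale) of each tested gene in 4 lists (x axis), ordered by size within a list, with filled points for an adjusted p under 0.05 and names for some of the genes. The lists hold genes called in both directions, with 2 higher and 3 lower among the 8 lineage factors and markers.

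Replicates of the LPS + G-CDs group differed from each other with gene length, and some of the 8 genes did so in the same way. Among the shortest 3862 tested genes, with a median length of 1280 bases, replicates 1, 2 and 3 lay -0.25, -0.02 and 0.27 from their group mean on the log2 scale. Among the middle 3861 genes, with a median of 3758 bases, they lay at -0.06, 0.01 and 0.05. Among the longest 3862, with a median of 7446 bases, the values were 0.20, 0.00 and -0.20. The short genes Cebpb (1504 bases) and Lyz2 (1316 bases) lay at -0.62 and -0.44 in replicate 1, and at 0.60 and 0.44 in replicate 3. Spi1 (2695 bases) and Cebpa (2636 bases) had the same order, at -0.35 and -0.26 in replicate 1 and 0.38 and 0.25 in replicate 3. Csf1r (4885 bases) and Adgre1 (3238 bases) had the opposite order, at 0.12 and 0.20 in replicate 1 and -0.12 and -0.27 in replicate 3. Itgam (5024 bases) showed no such order, at -0.07, 0.08 and -0.01. These last 5 genes all belong to the middle class, from 2577 to 5215 bases. The LPS libraries showed little of this, with medians between -0.015 and 0.018 for the shortest genes. The control libraries showed it too, at -0.06, -0.07 and 0.17 for the shortest and 0.09, 0.10 and -0.16 for the longest genes. With the length trend removed from each library, 5 of the 8 genes were called for LPS + G-CDs against control and 0 against LPS.

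**Figure D5:**
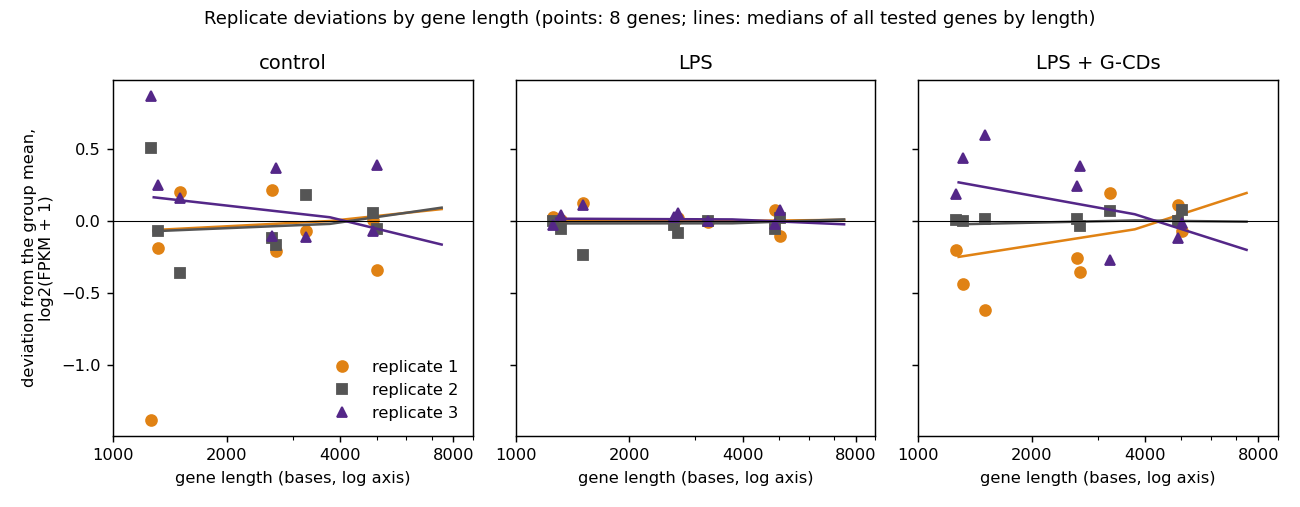
Deviation of each replicate from its group mean on the log2(FPKM + 1) scale (y axis) against gene length in bases (x axis, log scale), with points for the 8 tested genes and lines joining the medians of all tested genes in 3 length classes. In the LPS + G-CDs group the line of replicate 1 runs from -0.25 to 0.20 and that of replicate 3 from 0.27 to -0.20, the control lines spread less, and those of the LPS group stay near 0.

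The deposited values already contain a scaling between libraries, and bringing every library to the same total (TPM) moved the median change of all genes from 0.02 to -0.21 with LPS, to -0.12 between LPS + G-CDs and LPS and to -0.33 between LPS + G-CDs and control. Of the called genes, 24.6% were then higher with LPS, beside 50.3% in the deposited scaling, and 18.8% beside 50.8% with LPS + G-CDs against control. On the TPM scale Csf1r, Cebpa, Lyz2 and Adgre1 kept their directions against control in both comparisons, while Adgre1 lost its call with LPS + G-CDs, which left 1 gene higher and 3 lower. Itgam lost its call with LPS (0.29, adjusted p = 0.26) and Cebpb came just under the threshold (0.61, adjusted p = 0.05 when rounded), and Itgam turned to -0.28 with LPS + G-CDs against control (adjusted p = 0.25).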

How the data were processed

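RNA-seq of 9 RAW264.7 libraries was analyzed. The authors purified mRNA with poly-T beads, sequenced the libraries by Illumina, and deposited FPKM per gene with coordinates and lengths. The submitters' processing notes name GRCm38 and mm10, and the aligner and counting method are not given in the sources used here. FPKM times gene length, divided by the step that 1 read adds in that library (estimated from genes with few reads), gave whole reads within 0.05 reads in 100% of values, with 14752400 to 17312255 reads on genes in a library. Intervals cover the spread between libraries, and reads without molecular identifiers are not independent molecules.

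Genes at 1 FPKM or more in at least 3 libraries (11585 of 54532) were fitted as log2(FPKM + 1) with limma 3.58.1 in R 4.3.3, with an empirical Bayes trend and 1 model for the 3 groups. Tables and exact permutation tests used Python 3.11.15, pandas 2.3.3 and scipy 1.17.1, and plots matplotlib 3.10.9. Genes and lists were chosen with earlier results of these data known. All 9 genes were named. From each list the 2 largest called changes in each direction were named, with the ligands, partner chains and relatives of the 9. Some genes that this rule names are not reported here. Shared sequence was counted as 50-base words of the longest transcript in GENCODE mouse release 21. Promoters came from RefSeq (GRCm38.p6), and those of 6 of the 9 genes were analyzed.

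Groups share replicate numbers. Correlations of deviations from the group mean were 0.103, 0.137 and 0.113 for the control and LPS libraries with the same number, each over the 0.1 that counts as pairing. They were 0.095, 0.08 and 0.143 for LPS with LPS + G-CDs and 0.28, 0.057 and 0.653 for control with LPS + G-CDs, which do not meet it, and pairs of different number ranged from -0.671 to 0.504. A replicate block was among the alternatives. The others were a pseudocount of 0.1, no filter and a filter at 5 FPKM, TPM, quantile normalization, median-of-ratios scaling, a fit of the 6 libraries compared, no trend, limma's voom on the reads, removal of the gene-length trend, the sum of Lyz1 and Lyz2, and each library left out. The block together with removal of the length trend, and removal of length and GC trends, were added after seeing the data.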

Additional observations from a re-analysis of the deposited data

How the results depend on the processing

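The number of the 8 genes called was 5 for LPS against control, 0 for LPS + G-CDs against LPS and 5 for LPS + G-CDs against control. With no filter on low values the first was 3, and with the 6 libraries of the comparison alone the last was 3. With each library left out in turn the 3 numbers were 3 to 4, 0 to 1 and 4 to 5. Over all genes, the 3630 calls for LPS against control went to 2478 to 3292 with a library left out and to 4104 with the replicate block. The 57 calls for LPS + G-CDs against LPS went to 25 with a pseudocount of 0.1, to 37 as TPM, to 25 with 6 libraries, to 92 with the length trend removed, to 91 with length and GC trends removed, and to 11 to 256 with a library left out, where 256 came without LPS + G-CDs replicate 1. The 2927 calls for LPS + G-CDs against control went to 1789 with 6 libraries and to 1914 to 3245 with a library left out, lowest without LPS + G-CDs replicate 2. The cause was not tested.

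The replicate block gave 6, 0 and 5 calls among the 8 genes. The call it added was Cebpb with LPS.

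Values that turned in sign belonged to differences that did not pass the test. As TPM, Spi1 was -0.061 with LPS, -0.013 for LPS + G-CDs against LPS and -0.074 against control, Cd68 -0.11 and Csf1r -0.055 for LPS + G-CDs against LPS, and Itgam -0.28 for LPS + G-CDs against control. With quantile normalization Spi1 was -0.003, -0.022 and -0.025 in the same order, and Cd68 and Csf1r -0.19 and -0.08 for LPS + G-CDs against LPS. In that comparison, removal of the length trend, with or without the block, gave -0.22 for Cd68 and -0.008 for Spi1, and removal of length and GC trends -0.25 and -0.028. With each library left out, Cd68 ranged from -0.22 (without control replicate 1) to 0.91 with LPS, from -0.037 to 0.16 for LPS + G-CDs against LPS and from -0.16 to 0.97 against control. Spi1 ranged from -0.036 to 0.33 for LPS + G-CDs against LPS, and Itgam from -0.06 to 0.31 against control. Counts of 30 to 57 reads limit what can be said of Itgax.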

Other observations

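For each of the 8 tested genes, the gene with the most similar profile over the 9 libraries was found by the root mean square difference of centered log2(FPKM + 1) values. Spi1 was nearest to Prmt1, an arginine methyltransferase, at 0.06, and Csf1r to Sgpp1, a sphingosine-1-phosphate phosphatase, at 0.06. Cebpa was nearest to Fam69a at 0.07, Adgre1 to Pik3r5, a regulatory subunit of a phosphoinositide kinase, at 0.09, and Lyz2 to Kcnn4, a calcium-activated potassium channel, at 0.09. Itgam was nearest to Gng12, a G protein subunit, at 0.11. Cebpb was nearest to Hax1 and Cd68 to the mitochondrial gene mt-Nd6, both at 0.16. This measure grows with a gene's own spread over the libraries, so it does not rank the 8 genes. The search covered the tested genes, and the libraries they were compared over share the group differences and the length trend.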
